A study of Mus musculus with 6 samples.

Results

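The genes described here are 53 DNA repair genes that were listed by pathway. They were chosen by name and not by their measured values. Of the 53, 51 were read on the arrays, out of 19938 genes read in all. The list held 18 genes of base excision and single-strand break repair, 8 of end joining, 14 of homologous recombination and break signalling, 3 of mismatch repair, 8 of nucleotide excision repair and 2 of the Fanconi anaemia pathway. Tdg and Dclre1c had no probe set that named a single gene.

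Base excision repair removes small base lesions through glycosylases, an abasic site endonuclease, a polymerase and a ligase, and PARP1 and PARP2 bind the strand breaks that arise on the way. Double-strand breaks are rejoined either directly, by the Ku and DNA ligase IV machinery, or by copying the sister chromatid in homologous recombination. Bulky lesions are cut out by nucleotide excision repair, base mispairs by mismatch repair, and crosslinks are handled by the Fanconi anaemia proteins. Transcription of many recombination genes is known to follow the cell cycle, so they are expressed mainly in dividing cells such as myoblasts and less in fused muscle fibres.

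The cells were C2C12, a mouse myoblast line. In shPARP2 cells PARP2 had been silenced with a lentiviral small hairpin RNA at 40 MOI, and the isogenic scPARP2 cells carried a scrambled hairpin by the same delivery. Both lines grew in DMEM with fetal calf serum, and the study's methods state that silencing was maintained by selection with puromycin, without saying so of the scPARP2 line separately. RNA of 3 shPARP2 and 3 scPARP2 samples was hybridized to Affymetrix Mouse Gene 1.0 ST arrays, 1 array per sample. The comparison is of 1 line with 1 line. Whether the 3 samples of each line came from separate cultures is not stated in the sources used here, so the p-values measure only how far these samples spread, and that spread may be technical.

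Values are log2 signals, so that a difference of 1 is a doubling of signal. Each gene was read from its brightest probe set. The signal of a probe set also depends on its probes, so percentiles and sums of signal given for marker lists are descriptions and rank no gene against another. A gene is called higher or lower in shPARP2 cells where limma gave an adjusted p under 0.05 (Benjamini-Hochberg over 35556 probe sets). Parp2 itself read 7.86, 8.14 and 7.91 in shPARP2 arrays, against 8.94, 9.13 and 9.05 in scPARP2 arrays. It fell to 47.6% of the scPARP2 signal (log2 fold change -1.07, SE 0.10, limma adjusted p = 0.00103), and the lines did not overlap. Array medians lay between 7.04 and 7.18, and arrays of 1 line correlated at 0.989 to 0.992 in shPARP2 and at 0.995 in scPARP2 cells. All 7 myoblast markers were among the brighter probe sets, between the 81.0 and 96.6 percentile of signal.

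Silencing of PARP2 went with changes in both directions within the repair genes. The checkpoint kinase Chek1 rose to 2.38-fold of its scPARP2 signal, while its counterpart Chek2, the Ku subunit Xrcc5 and the damage recognition genes Xpa and Xpc fell to between 57.6% and 64.0%. Of the 51 genes, 6 were higher (11.8%) and 7 were lower (13.7%). The background over all genes read was 12.4% for higher and 11.6% for lower genes. In either direction 13 of 51 passed (25.5%), against 24.0% of all genes, so the repair genes as a list passed about as often as any gene. By pathway the share was 23.5% in base excision, 28.6% in end joining, 21.4% in homologous recombination and 37.5% in nucleotide excision repair. In mismatch repair 1 of 3 passed and in the Fanconi anaemia pathway 0 of 2. Each pathway holds few genes. The arrays of the lines did not overlap for 28 of the 51 (54.9%), against 42.1% of all genes. Among genes with a mean signal above the median of all probe sets, a restriction chosen after the data were seen, 13 of 44 repair genes passed (29.5%), against 38.7% of all 11253 such genes, and 59.1% of the 44 had no overlap, against 62.5% of those genes. The median log2 fold change was -0.05 over the 51 genes and -0.02 over all genes.

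**Figure D1:**
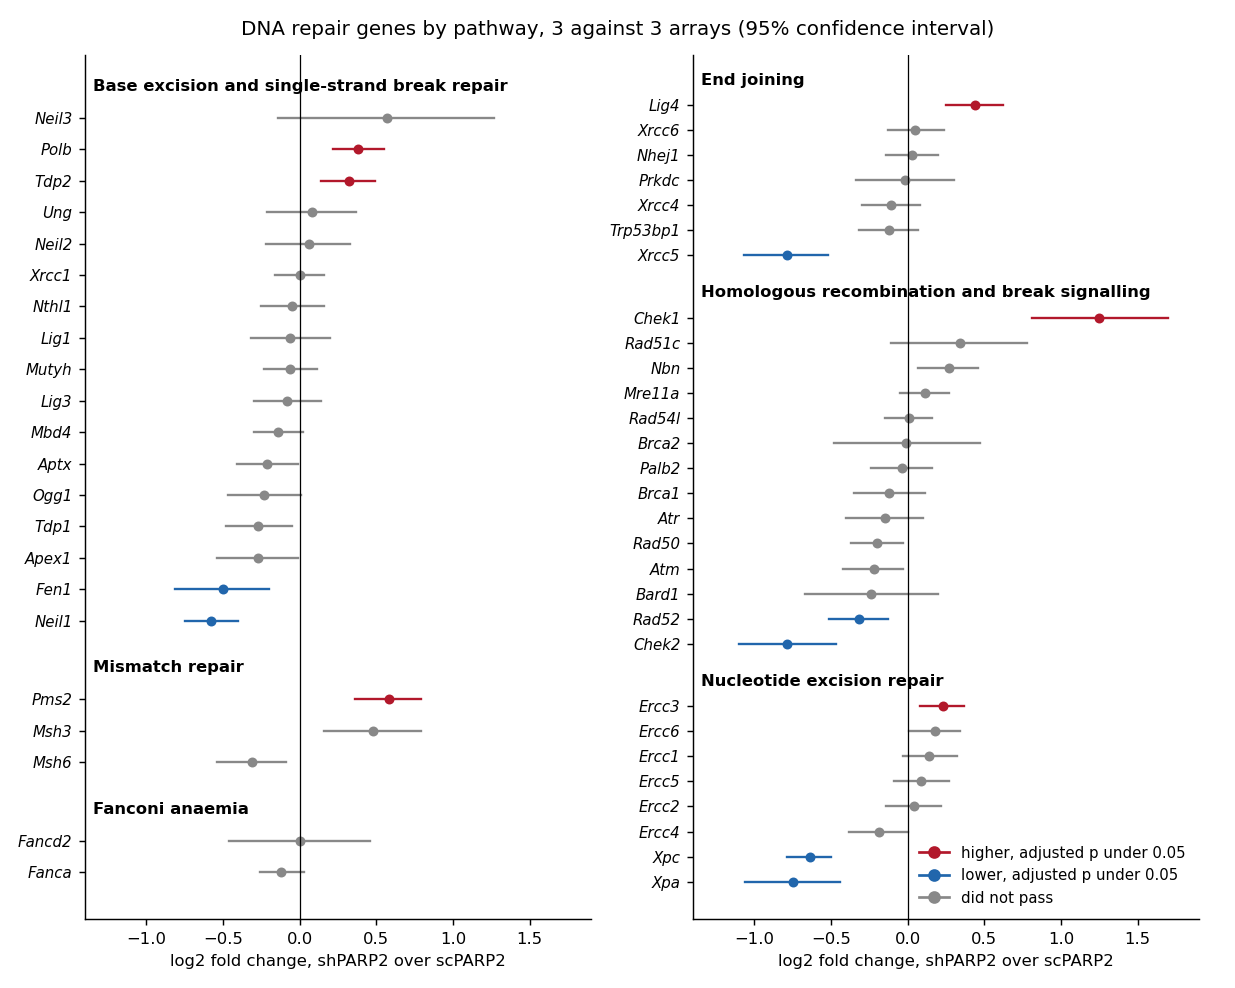
Log2 fold change of shPARP2 over scPARP2 (x axis) for each of the 51 repair genes, grouped by pathway, with the 95% confidence interval from 3 against 3 arrays. Red points passed as higher (6 genes) and blue points as lower (7 genes), and Chek1, at 1.25, lies farthest from 0.

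In base excision and single-strand break repair, 2 of 17 measured genes were higher, 2 were lower and 13 did not pass. Polb, the polymerase that fills the short gap of base excision repair (probe set 10577544), read 9.30, 9.38 and 9.48 in shPARP2 arrays, against 9.01, 8.99 and 9.00 in scPARP2 arrays. Every shPARP2 array lay above every scPARP2 array, and the gene rose by a log2 fold change of 0.38 (SE 0.07, limma adjusted p = 0.0122). Tdp2, which frees DNA ends from trapped topoisomerase II (probe set 10404187), read 9.63, 9.71 and 9.74 in shPARP2 arrays, against 9.46, 9.31 and 9.35 in scPARP2 arrays. The lines did not overlap, with a log2 fold change of 0.32 (SE 0.07, limma adjusted p = 0.0276). The genes that fell were a glycosylase and a flap nuclease. Neil1, a glycosylase for oxidized pyrimidines (probe set 10593887), read 7.33, 7.51 and 7.36 in shPARP2 arrays, against 8.01, 7.94 and 7.99 in scPARP2 arrays. All shPARP2 arrays were the lower ones, at a log2 fold change of -0.58 (SE 0.07, limma adjusted p = 0.00323). Fen1, the flap endonuclease of long-patch repair and of Okazaki fragment processing (probe set 10465912), read 6.82, 7.23 and 6.79 in shPARP2 arrays, against 7.47, 7.40 and 7.47 in scPARP2 arrays. The lines did not overlap, and shPARP2 replicate 2 lay closest to the scPARP2 arrays (log2 fold change -0.50, SE 0.13, limma adjusted p = 0.0375).

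The other 13 genes of base excision and single-strand break repair did not pass. The scaffold Xrcc1, which PARP activity recruits to breaks, had a log2 fold change within 0.01 of 0 (95% confidence interval -0.16 to 0.16), and its partner ligase Lig3 had -0.08 (-0.30 to 0.14). Lig1, the replicative ligase, had -0.06 (-0.32 to 0.20). Among the glycosylases, Ogg1, which removes 8-oxoguanine, had -0.23 (-0.47 to 0.01), Mutyh, which removes the adenine opposite it, -0.06, the uracil glycosylase Ung 0.08, Neil2 0.06, Nthl1 -0.05 and Mbd4, which acts at G:T mispairs, -0.14. The abasic endonuclease Apex1 read 10.34, 10.50 and 10.13 in shPARP2 arrays, against 10.51, 10.67 and 10.61 in scPARP2 arrays. These arrays lay close to each other at their edge, and the gene did not pass (limma adjusted p = 0.158). The end-processing genes Aptx, which removes AMP left by failed ligation, and Tdp1, which acts on trapped topoisomerase I, had -0.21 and -0.27 (limma adjusted p = 0.146 and 0.0937), and the dimmer of the 2 probe sets of Tdp1 gave -0.17 (limma adjusted p = 0.535). Neil3, a glycosylase of dividing cells, read 7.36, 8.14 and 6.90 in shPARP2 arrays, against 6.94, 6.93 and 6.83 in scPARP2 arrays. Its shPARP2 arrays were spread so widely that they overlapped with scPARP2, and an estimate of 0.57 had an interval of -0.14 to 1.27.

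In end joining, 1 of 7 measured genes was higher, 1 was lower and 5 did not pass. Xrcc5, which encodes the Ku80 subunit of the ring that holds broken ends (probe set 10347232), read 9.01, 9.41 and 9.09 in shPARP2 arrays, against 9.90, 9.99 and 9.99 in scPARP2 arrays. All shPARP2 arrays were below all scPARP2 arrays, and the signal fell to 57.6% (log2 fold change -0.79, SE 0.11, limma adjusted p = 0.00493). Its dimer partner Xrcc6, which encodes Ku70, read 8.50, 8.63 and 8.48 in shPARP2 arrays, against 8.44, 8.57 and 8.45 in scPARP2 arrays. These arrays overlapped, with a log2 fold change of 0.05 (95% confidence interval -0.13 to 0.24). Lig4, the ligase that seals the joined ends (probe set 10576946), read 9.12, 9.33 and 9.28 in shPARP2 arrays, against 8.82, 8.82 and 8.78 in scPARP2 arrays. It lay above scPARP2 on every array (log2 fold change 0.44, SE 0.08, limma adjusted p = 0.0106). Xrcc4, the cofactor of Lig4, had -0.11 (-0.30 to 0.08) and the further ligation factor Nhej1 had 0.03 (-0.14 to 0.20). Prkdc, the kinase that Ku recruits, had -0.02 (-0.34 to 0.30), and Trp53bp1, which shields ends from resection, had -0.12 (-0.32 to 0.07).

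**Figure D2:**
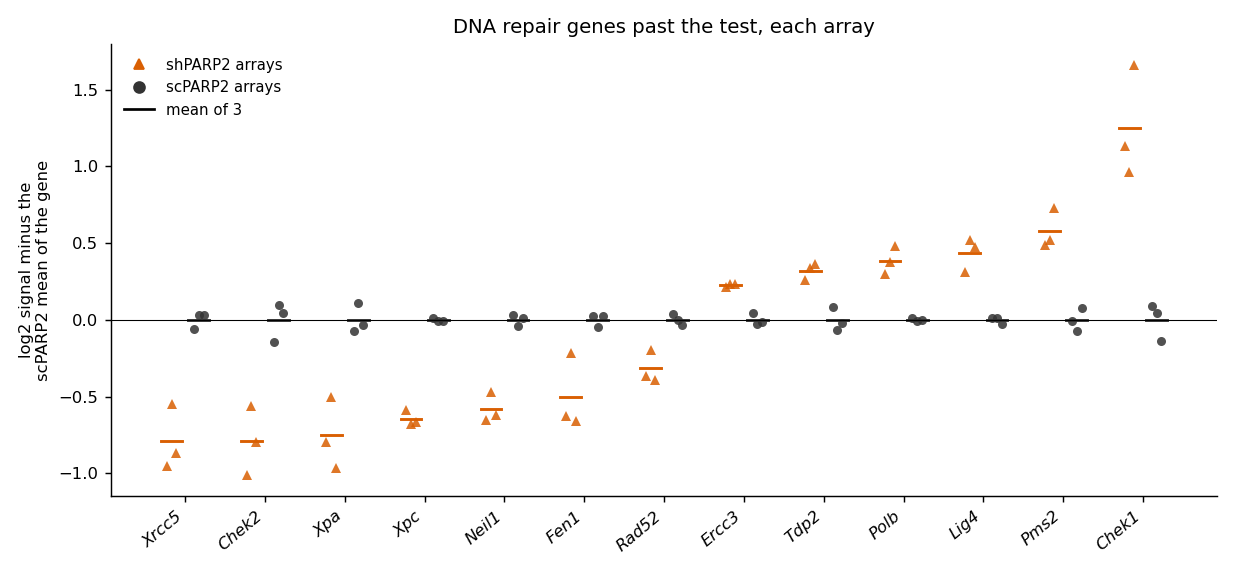
Log2 signal of each array minus the scPARP2 mean of the gene (y axis) for the 13 repair genes past the test, with shPARP2 arrays as triangles, scPARP2 arrays as circles and bars for the mean of 3. Triangles and circles do not overlap for any of the 13 genes, and the triangles are spread more widely than the circles for all but Tdp2 and Ercc3.

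In homologous recombination and break signalling, 1 of 14 genes was higher, 2 were lower and 11 did not pass. Of the 4 signalling kinases listed, 1 rose, 1 fell and 2 did not pass. Chek1, the effector kinase downstream of ATR that restrains cell cycle progress at stalled forks (probe set 10592201), read 8.53, 8.36 and 9.06 in shPARP2 arrays, against 7.49, 7.44 and 7.26 in scPARP2 arrays. The lowest shPARP2 array was well above the highest scPARP2 array (log2 fold change 1.25, SE 0.18, limma adjusted p = 0.00544). Chek2, the effector kinase downstream of ATM (probe set 10524266), read 7.13, 7.58 and 7.35 in shPARP2 arrays, against 8.00, 8.24 and 8.19 in scPARP2 arrays. Here all shPARP2 arrays were the lower ones, and the signal fell to 58.0% (log2 fold change -0.79, SE 0.13, limma adjusted p = 0.00884). Atm, the kinase that answers double-strand breaks, read 8.55, 8.72 and 8.80 in shPARP2 arrays, against 8.90, 8.93 and 8.92 in scPARP2 arrays, and did not pass although the arrays did not overlap (log2 fold change -0.22, limma adjusted p = 0.12). Atr, the kinase that answers single-stranded DNA, had overlapping arrays and a log2 fold change of -0.15 (95% confidence interval -0.40 to 0.10).

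Rad52, known in yeast as the mediator that loads the recombinase and in mammals for annealing single strands (probe set 10541191), read 9.54, 9.71 and 9.51 in shPARP2 arrays, against 9.94, 9.90 and 9.87 in scPARP2 arrays. It was lower on every shPARP2 array (log2 fold change -0.32, SE 0.08, limma adjusted p = 0.0336). The mammalian mediators did not pass. Brca1, its partner Bard1, the bridge Palb2 and Brca2 had log2 fold changes of -0.12, -0.24, -0.04 and -0.01, with an interval of -0.48 to 0.47 for Brca2, and the 3 probe sets of Bard1 gave -0.24, -0.06 and 0.08. The recombinase paralog Rad51c had 0.34 (95% confidence interval -0.11 to 0.78) and the motor protein Rad54l 0.01 (-0.15 to 0.16). In the end-resecting complex, the nuclease Mre11a had 0.11, the tether Rad50 had -0.20 and Nbn, which links the complex to ATM, had 0.27 (limma adjusted p = 0.333, 0.116 and 0.0741). The dimmer probe set of Nbn gave -0.07 (limma adjusted p = 0.657).

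The 250 bases before the start of Chek1 and Chek2, the effector kinases that changed in opposite directions, are shown from the RefSeq promoter table (GRCm38.p6), 5′ to 3′ on the strand of the gene. Capitals mark a match to an E2F-type site (TTTCCCGC, TTTCGCGC, TTTGCCGC or TTTGGCGC, either strand), the kind of element that E2F factors are known to bind in genes of the S phase. Chek1 (chr9:36726659-36726908, minus strand) holds none of these letters in this stretch, and Chek2 (chr5:110839733-110839982, plus strand) holds 1, read on the opposite strand, from base -152 to base -145 before the start.
Chek1: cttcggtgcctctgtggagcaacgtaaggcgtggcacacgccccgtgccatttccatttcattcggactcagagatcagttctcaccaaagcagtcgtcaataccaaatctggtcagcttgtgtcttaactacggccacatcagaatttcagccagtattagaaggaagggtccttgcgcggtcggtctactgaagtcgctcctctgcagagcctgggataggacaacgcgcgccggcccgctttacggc
Chek2: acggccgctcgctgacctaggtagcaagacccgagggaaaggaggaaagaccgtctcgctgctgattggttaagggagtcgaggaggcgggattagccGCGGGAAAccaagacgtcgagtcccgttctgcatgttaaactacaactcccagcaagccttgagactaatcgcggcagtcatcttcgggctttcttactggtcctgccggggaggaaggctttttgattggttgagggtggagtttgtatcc
Over the window from 250 bases before to 50 bases after the start, an E2F-type site stood at 9 of 42 repair genes found in the table (21.4%), against 3.48% of the 15563 genes read that the table holds and 2.6% of all genes in it. The 9 were Lig1, Nthl1, Xrcc6, Brca2, Bard1, Rad51c, Chek2, Msh3 and Msh6. Of the 9, 1 passed the test, Chek2, and Msh3 missed it narrowly (limma adjusted p = 0.0526). Of all 51 repair genes 25.5% passed, and of all genes read 24.0%, and 9 genes are too few to set against these shares. Among called genes in the table, 0 of 3 higher ones and 1 of 6 lower ones held such a site. The cell cycle element TTTGAA, searched on both strands, stood at 4 of 42 (9.52%), against 17.3% of the genes read. A match is a description of letters and was not read as a bound site.

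In mismatch repair, Pms2, a subunit of the nicking endonuclease that marks the strand for removal (probe set 10527268), read 7.78, 7.81 and 8.02 in shPARP2 arrays, against 7.28, 7.22 and 7.37 in scPARP2 arrays. It rose by a log2 fold change of 0.58 (SE 0.09, limma adjusted p = 0.00647) with no overlap. Msh3, the mispair receptor subunit for larger loops, read 8.53, 8.61 and 9.01 in shPARP2 arrays, against 8.26, 8.21 and 8.25 in scPARP2 arrays. The lines did not overlap, and the gene missed the threshold narrowly at a log2 fold change of 0.48 (SE 0.13, limma adjusted p = 0.0526). Msh6, the subunit for single mispairs, read 7.53, 7.83 and 7.62 in shPARP2 arrays, against 7.93, 8.00 and 7.99 in scPARP2 arrays. It lay on the other side of 0, at -0.31 (limma adjusted p = 0.067), and did not pass either.

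In nucleotide excision repair, 1 of 8 genes was higher, 2 were lower and 5 did not pass. All 8 had a mean signal above the median of all probe sets, where 20.3% of all genes were higher and 18.4% lower. The 2 genes that fell are known to act in lesion recognition and verification. Xpc, which finds distorted DNA in the whole genome (probe set 10546349), read 7.94, 7.85 and 7.86 in shPARP2 arrays, against 8.54, 8.52 and 8.52 in scPARP2 arrays. The arrays of each line lay close together and far apart between lines, and Xpc had the smallest adjusted p of the 51 genes (log2 fold change -0.64, SE 0.06, limma adjusted p = 0.00116). Xpa, which verifies the lesion and assembles the incision complex (probe set 10512739), read 8.94, 9.23 and 8.77 in shPARP2 arrays, against 9.66, 9.84 and 9.70 in scPARP2 arrays. The signal fell to 59.3% without overlap (log2 fold change -0.75, SE 0.13, limma adjusted p = 0.0095). Ercc3, the XPB helicase of TFIIH (probe set 10454564), read 10.78, 10.80 and 10.80 in shPARP2 arrays, against 10.61, 10.54 and 10.55 in scPARP2 arrays. It was higher by 1.17-fold, close to the threshold (log2 fold change 0.23, SE 0.06, limma adjusted p = 0.0464). The second TFIIH helicase Ercc2 had 0.04, the nuclease pair Ercc1 and Ercc4 had 0.14 and -0.19, the nuclease Ercc5 had 0.09 and the transcription-coupling factor Ercc6 had 0.18, with limma adjusted p between 0.14 and 0.787. In the Fanconi anaemia pathway 0 of 2 genes passed in limma, also at an unadjusted p under 0.05. The core complex gene Fanca had -0.12 (95% confidence interval -0.26 to 0.03) and Fancd2, the protein that is ubiquitinated at crosslinks, had an interval of -0.46 to 0.46 around 0.

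Signals varied more among shPARP2 arrays than among scPARP2 arrays, in repair genes as in all genes. The median SD was 0.12 against 0.0447 in repair genes and 0.125 against 0.0613 in all genes read. The SD was larger in shPARP2 cells for 43 of 51 repair genes (84.3%). This share was 78.4% of all genes and 84.9% of genes with a mean signal above the median of all probe sets. For 11 repair genes that are commonly listed as E2F or S-phase linked (Brca1, Brca2, Bard1, Rad54l, Chek1, Fen1, Lig1, Fancd2, Ung, Msh6 and Neil3) the median SD was 0.243 in shPARP2 and 0.0636 in scPARP2 cells. Replicate 2 was the highest shPARP2 array for 9 of these 11 genes and replicate 3 the lowest for 7. The high replicate 2 was not confined to them, since it was the highest shPARP2 array for 22 of the other 40 repair genes (55.0%), against 34.3% of all genes. The lowest array of those 40 was replicate 1 for 25 (62.5%) and replicate 3 for 11 (27.5%), and replicate 3 was the lowest for 27.7% of all genes. Brca2, for example, read 7.28, 7.80 and 7.00 in shPARP2 arrays, against 7.43, 7.38 and 7.29 in scPARP2 arrays, and Fancd2 read 6.56, 7.01 and 6.23 in shPARP2 arrays, against 6.52, 6.63 and 6.66 in scPARP2 arrays. In both genes replicate 2 lay above and replicate 3 below all scPARP2 arrays. Chek1 and Ung ran the other way, with replicate 2 as their lowest shPARP2 array. Ung read 8.37, 7.93 and 8.26 in shPARP2 arrays, against 8.08, 8.12 and 8.10 in scPARP2 arrays, so its replicate 2 lay below all scPARP2 arrays. Of the 11, Chek1 was called higher and Fen1 lower.

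**Figure D3:**
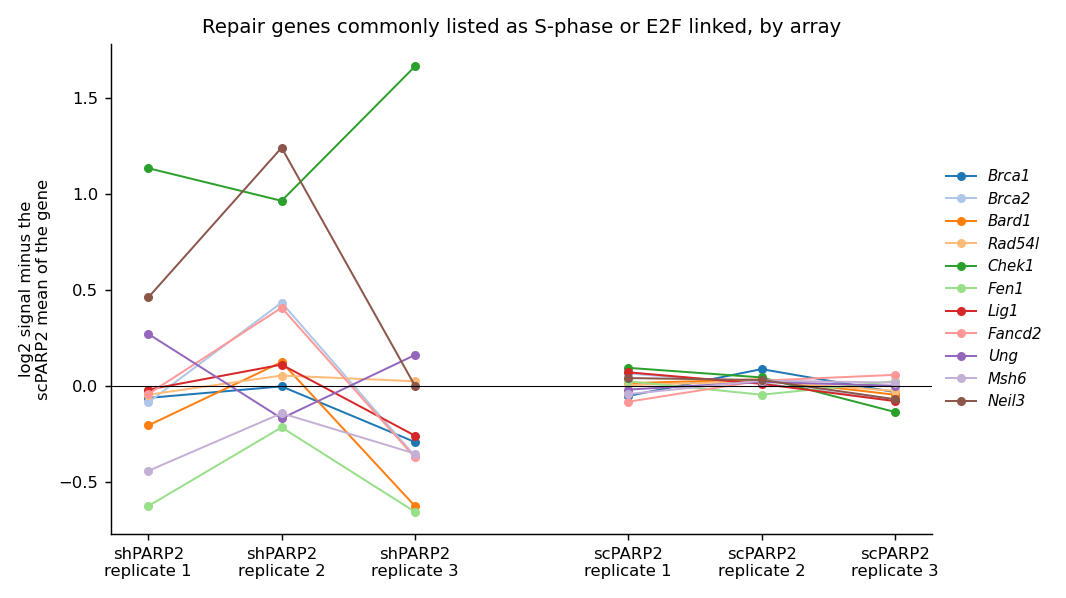
Log2 signal minus the scPARP2 mean of the gene (y axis) on each of the 3 shPARP2 and 3 scPARP2 arrays (x axis) for the 11 repair genes commonly listed as E2F or S-phase linked, 1 line per gene. Of the 11 lines 9 peak on shPARP2 replicate 2, Chek1 and Ung have their lowest shPARP2 value there, and the scPARP2 arrays lie close to 0.

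Of 19 measured genes of proliferating cells, replicate 2 was the highest shPARP2 array for 17 (89.5%) and replicate 3 the lowest for 13 (68.4%), and the likeness to the repair genes was not tested. Of the 19, 4 were higher, 2 were lower and 13 did not pass, with a median log2 fold change of 0.20. Their summed linear signal was 13906 to 17281 in shPARP2 arrays and 12009 to 12442 in scPARP2 arrays. Without Pcna and Rrm2, left out after the data were seen, the sums overlapped, at 7255 to 10741 in shPARP2 arrays and 8027 to 8410 in scPARP2 arrays. The higher ones were the clamp Pcna (log2 fold change 0.50), the helicase subunit Mcm4 (0.53), the cyclin Ccne2 (0.87) and the ribonucleotide reductase subunit Rrm2 (1.59), and the lower ones were the helicase subunits Mcm2 (-0.29) and Mcm7 (-0.40). Their part in the levels of the repair genes was not tested. Markers of differentiated muscle were higher for 7 of 8, with a summed signal of 14434 to 18319 in shPARP2 arrays and 6525 to 6974 in scPARP2 arrays, including the fusion protein gene Mymk (1.89) and the skeletal actin Acta1 (1.20). Of 7 myoblast markers 5 were higher and 1 was lower, Vcam1 (-0.76), with a summed signal of 17030 to 20842 in shPARP2 arrays and 13337 to 13967 in scPARP2 arrays. The part of either marker list in the repair genes was not tested either. In bulk RNA, fewer cells of a type and less RNA per cell cannot be told apart. Of 6 macrophage and leukocyte markers 1 was lower (Cd68, -0.72), and 0 of 6 epithelial and endothelial and 0 of 4 adipocyte markers passed in limma, also at an unadjusted p under 0.05. An array signal has no true 0, and the leukocyte marker Ptprc and the adipocyte marker Adipoq lay at the 29.5 and 14.2 percentile of all signals. Other markers of these lists were brighter. The macrophage and leukocyte list ranged from the 17.9 to the 59.5 percentile. The epithelial and endothelial list ranged from 28.2 to 62.2, and the adipocyte list from 14.2 to 51.4.

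The direction of all 13 called genes held in each of 13 refits of the arrays (7 other settings and 6 with 1 array left out), and 7 of the 13 passed at an adjusted p under 0.05 in every one. These were Neil1, Xrcc5, Chek1, Chek2, Pms2, Xpa and Xpc. Lig4 was lost without scPARP2 replicate 3 only (limma adjusted p = 0.056), and Polb was lost without any 1 of the scPARP2 arrays (limma adjusted p up to 0.0619). Tdp2, Fen1, Rad52 and Ercc3 were lost in 5, 8, 7 and 9 refits, with limma adjusted p up to 0.12, 0.123, 0.129 and 0.192. Of the genes that had not passed, 7 did so in some refit. Msh3 and Nbn passed as higher in 8 and 2 of the 13 refits, and Tdp1, Msh6, Rad50, Atm and Aptx passed as lower in 4, 4, 3, 1 and 1.

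**Figure D4:**
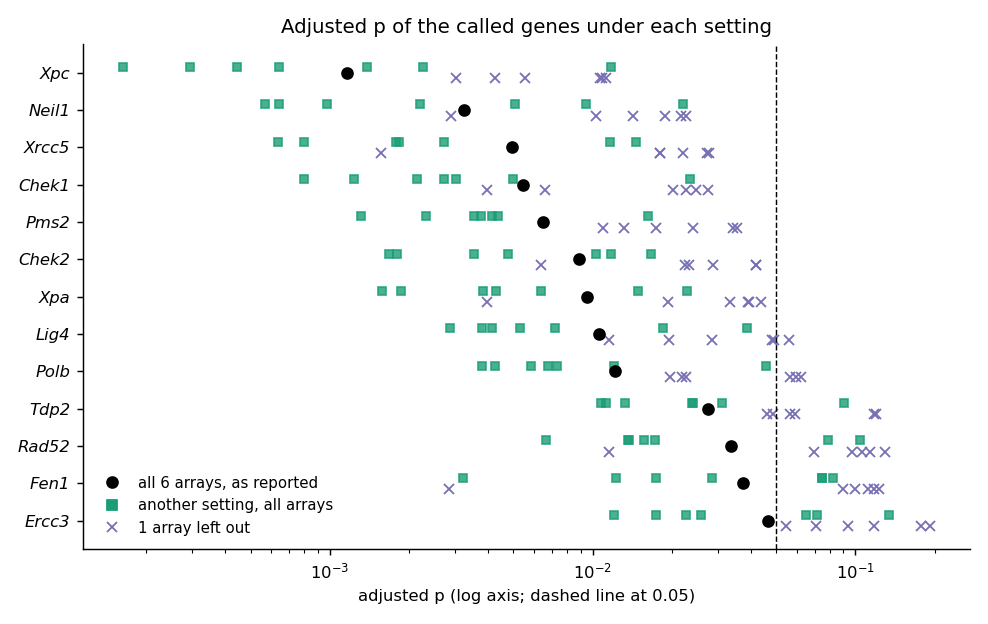
Adjusted p from limma (x axis, log scale, dashed line at 0.05) of the 13 called repair genes with all 6 arrays as reported (black circles), under other settings with all arrays (squares) and with 1 array left out (crosses). For Xpc, Neil1, Xrcc5, Chek1, Pms2, Chek2 and Xpa every mark lies left of the dashed line, and Ercc3 lies farthest to its right, at up to 0.192.

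Repair genes outside the list of 53 were read for the same pathways. Of 70 listed, 63 were measured, 10 were higher and 8 lower (28.6% called, against 24.0% of all genes). PARP paralogs with a role at breaks did not pass, with Parp1 at a log2 fold change of -0.06 (95% confidence interval -0.25 to 0.12) and Parp3 at 0.24 (-0.04 to 0.52). In base excision repair 1 of 11 passed, the uracil glycosylase Smug1 (-0.38). In recombination and break signalling 5 of 18 passed, namely the motor protein Rad54b (0.60), the ATR partner Atrip (0.30), the single-strand binding subunits Rpa2 (0.23) and Rpa3 (-0.56), and the break adaptor Mdc1 (-0.39). In nucleotide excision repair 5 of 12 passed. The damage sensor Ddb2 (-0.44) and the transcription-coupled factor Uvssa (-0.28) were lower, while Ercc8, also of transcription-coupled repair (0.29), and the TFIIH genes Gtf2h1 (0.39) and Mnat1 (0.37) were higher.

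In the Fanconi anaemia pathway 4 of 13 further genes passed. Fancb, of the core complex, read 7.23, 7.44 and 7.04 in shPARP2 arrays, against 6.33, 6.71 and 6.46 in scPARP2 arrays (log2 fold change 0.74), and the translocase Fancm read 7.04, 7.21 and 7.26 in shPARP2 arrays, against 6.57, 6.40 and 6.36 in scPARP2 arrays (0.73). Neither gene overlapped between the lines, Fancc was higher as well (0.30) and Fancf was lower (-0.27). In translesion synthesis 3 of 7 passed, with the polymerase Polh higher (0.72) and its relative Poli (-0.34) and the polymerase zeta subunit Mad2l2 (-0.51) lower. Of 2 further mismatch repair genes 0 passed in limma, also at an unadjusted p under 0.05. Of 12 p53 targets listed, 9 were measured, and Cdkn1a, Bax and Gdf15 had no probe set that named a single gene. Of the 9, 4 passed (44.4%, against 24.0% of all genes), in both directions. All 9 had a mean signal above the median of all probe sets, where 38.7% of all genes passed. Mdm2 (0.60) and Btg2 (0.66) were higher, and Trp53inp1 (-0.94) and Ccng1 (-0.34) were lower. The protein p53 is a substrate of the kinases Chek1 and Chek2, and a link of these targets to the 2 kinases was not tested.

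Some repair genes start back to back with a neighbour on the other strand, and a shared start region offers a comparison within these arrays. In the promoter table, 18 of 42 repair genes had such a neighbour within 1000 bases, a window chosen after the data were seen, and 16 pairs were measured. Both genes passed in 1 pair, Pms2 and Aimp2, a scaffold of the tRNA synthetase complex, whose starts lie 162 bases apart. Aimp2 read 10.44, 10.40 and 10.36 in shPARP2 arrays, against 9.92, 9.89 and 9.93 in scPARP2 arrays. It was higher on every shPARP2 array, as Pms2 was (log2 fold change 0.48, SE 0.06, limma adjusted p = 0.00307). For Fen1 and Lig4 the neighbour did not pass (Tmem258 -0.21 and Abhd13 0.13), and in 3 pairs the neighbour alone passed, namely Npat beside Atm (0.37), Nbr1 beside Brca1 (-0.31) and Tmem167 beside Xrcc4 (-0.43). In the other 10 pairs neither gene passed. Of all genes read 24.0% passed, and no background share over all back-to-back pairs is given here.

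**Figure D5:**
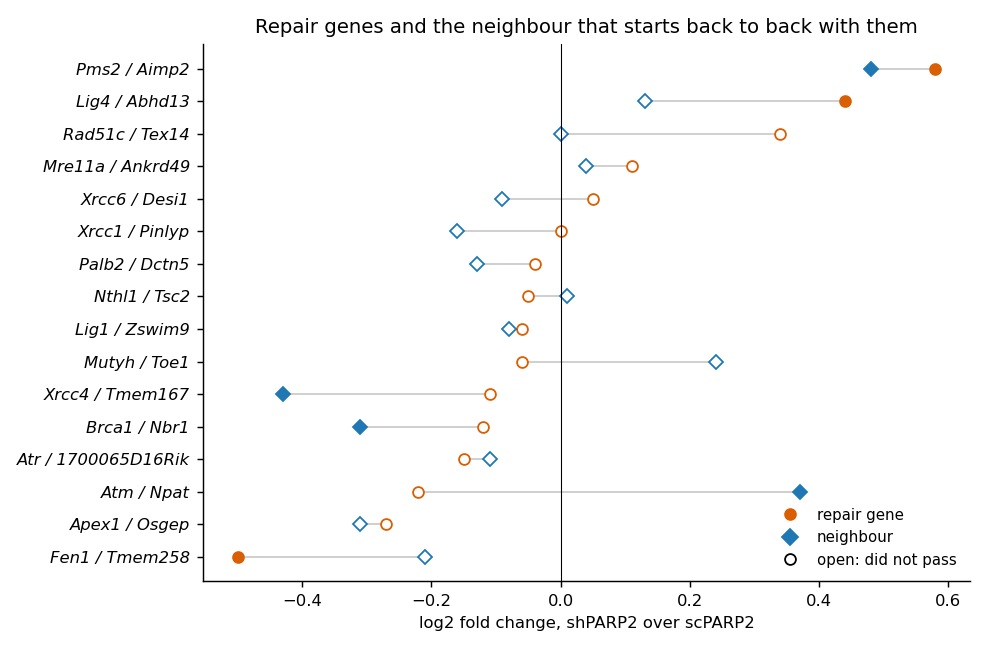
Log2 fold change of shPARP2 over scPARP2 (x axis) for 16 repair genes (circles) and the neighbour that starts back to back with each (diamonds), 1 pair per row, filled where the gene passed the test. Both marks are filled for Pms2 and Aimp2 only, at 0.58 and 0.48.

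The study concerned the transcription factor NRF2, which is known to bind antioxidant response elements with the core TGACNNNGC. On either strand this core stood in the window of 6 of 42 repair genes (14.3%), against 15.2% of the genes read that the table holds, so it was about as frequent as in any gene. Of the 6 (Neil1, Brca2, Rad52, Rad54l, Mre11a and Pms2), 3 passed the test, Neil1 and Rad52 as lower and Pms2 as higher. Of all 51 repair genes 25.5% passed, and of all genes read 24.0%. Rad52 lost its call in 7 of 13 refits. These are only 6 genes, and a link to NRF2 was not tested. The 250 bases before the start are shown for the lower ones, Neil1 and Rad52, with the core in capitals, from the same table. It lies at base -199 to -191 in Neil1 (chr9:57148306-57148555, minus strand) and, read on the opposite strand, at base -194 to -186 in Rad52 (chr6:119902448-119902697, plus strand).
Neil1: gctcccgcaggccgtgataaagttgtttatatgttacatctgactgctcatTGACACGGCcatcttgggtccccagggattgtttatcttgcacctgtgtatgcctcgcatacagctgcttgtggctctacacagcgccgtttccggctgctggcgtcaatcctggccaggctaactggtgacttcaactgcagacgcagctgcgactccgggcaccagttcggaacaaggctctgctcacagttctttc
Rad52: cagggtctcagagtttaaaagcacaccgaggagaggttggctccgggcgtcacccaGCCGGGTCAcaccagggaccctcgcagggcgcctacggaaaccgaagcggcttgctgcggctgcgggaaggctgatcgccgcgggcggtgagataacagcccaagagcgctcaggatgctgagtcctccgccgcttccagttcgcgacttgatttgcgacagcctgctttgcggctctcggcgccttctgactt
Neil1 and Rad52 read lower in shPARP2 cells by log2 fold changes of -0.58 and -0.32, as given above. Pms2, with the same core at base -198 to -190, read higher.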

How the data were processed

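The 6 C2C12 arrays of the series were used, 3 shPARP2 and 3 scPARP2, grouped by the transfection in the labels. The deposited table holds log2 expression values, which the authors computed with RMA per the labels. Its version and the library files were not given in the sources used here. RMA subtracts background and is meant to equalize array distributions, so a shift common to most genes may not be seen, and low signals are compressed. The array medians of the deposited values still differed, between 7.04 and 7.18. Arrays have no read depth, and their number limits the precision.

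Probe sets were named from the platform annotation. Of 35556, 21789 named 1 gene, 1621 several and 12146 none. Only those naming 1 gene were used, taking the brightest over 6 arrays for each gene. The lines were compared by lmFit and eBayes in limma 3.58.1 (R 4.3.3) without covariates, following the study's methods, and p-values were adjusted by Benjamini-Hochberg across the whole table. The calculation was tested on simulated data. Intervals are at 95%. Promoters were matched by Entrez gene identifier to RefSeq (GRCm38.p6), with 42 of the 53 genes found. Values were recomputed after quantile normalization, after median centring, without probe sets under the 40th percentile, with array weights, with a trended and robust variance, with replicate numbers as a block, from averaged probe sets, at an adjusted p threshold of 0.01, with a minimum of 1.5-fold, and without each array.

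Named were Parp2, every repair gene of the list, and of the other lists up to 3 genes with the largest and 3 with the smallest change among those past the test. The p53 targets that were not measured were named without values. Marker genes, neighbours and the Parp1 and Parp3 values beside them were chosen after their values were seen. The genes, lists and tests were chosen with earlier results of these data known.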

Additional observations from a re-analysis of the deposited data

How the results depend on the processing

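With all 6 arrays, 6 repair genes were higher and 7 lower in shPARP2 cells, with a median log2 fold change of -0.0453. At an adjusted p under 0.01, 2 were higher and 5 lower, and the share of all genes at this threshold is not given here. With at least 1.5-fold, 1 was higher and 4 were lower, which is 9.8% of the repair genes, against 10.1% of all genes. Array weights gave 12 lower, with 37.3% of the repair genes and 31.2% of all genes called in either direction. With 1 array left out, 2 to 6 were higher, 5 to 10 lower, and the median lay between -0.1128 and -0.0171. The count of higher genes dropped to 3, 3 and 2 without scPARP2 replicate 1, 2 and 3, where 14.1%, 13.9% and 13.6% of all genes passed, against 24.0% with all arrays. Fits without a shPARP2 array hold equally few arrays. Without shPARP2 replicate 1, 2 and 3 the higher count was 6, 5 and 5, and 18.2%, 25.9% and 22.7% of all genes passed. The cause of the drop was not tested. Quantile normalization, median centring, leaving out dim probe sets, a trended and robust variance and averaged probe sets kept the higher count between 6 and 8 and the lower count between 5 and 9. No call changed its direction in any of these. After quantile normalization 27.5% of the repair genes and 25.0% of all genes passed, and after median centring 21.6% and 20.7%. Without dim probe sets the shares were 35.4% and 41.5%, and with the trended and robust variance 29.4% and 26.9%.

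With the replicate block, 4 were higher and 5 lower, 9 of the 13 calls among them, so that 17.6% of the repair genes and 17.3% of all genes passed. Deviations of same-numbered samples correlated at -0.0507, 0.0925 and 0.0113, and replicate 2 of shPARP2 alone correlated best with its own number. The labels give only a replicate number. Deviations from a mean of 3 arrays depend on each other, so these values cannot show whether same-numbered samples were handled together. With 3 arrays a line, changes smaller than the intervals given could not be resolved.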
